A study of Mus musculus with 14 samples.

Results

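The 49 genes described here act in ribosome biogenesis, mostly in the nucleolus, and were taken as the rows whose symbol is on a list of such genes. All 49 had a row in both count tables, which hold 55367 gene symbols each, and all 49 passed the filter on low counts in both experiments. They fall into 7 groups by role, from the polymerase that transcribes ribosomal RNA to the factors that build the 60S subunit. The cells were wild-type mouse bone marrow cells depleted of mature lineages, which hold stem and progenitor cells, grown in IMDM with SCF, IL6 and IL3. For the first experiment they carried a pSMAL lentivirus for luciferase (the control, 3 libraries) or for SETBP1-D868N (3 libraries), a mutant form of the nuclear protein SETBP1. In the second experiment every culture carried SETBP1-D868N, and 4 libraries came from cells kept for 4 days with the solvent DMSO and 4 from cells kept for 4 days with 2.5 µM PF-9363, an inhibitor of MYST histone acetyltransferases. Since DMSO cells carry SETBP1-D868N too, the second experiment has no group without the mutant.

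Ribosome biogenesis begins when RNA polymerase I transcribes the ribosomal DNA repeats into a long precursor. Small nucleolar ribonucleoproteins modify that RNA, the box C/D kind by methylation and the box H/ACA kind by pseudouridylation, while the small-subunit (SSU) processome folds and cuts it. Separate sets of factors then mature the 40S and 60S subunits and bring them out of the nucleus, and growing or dividing blood progenitors use this pathway heavily. Many of its genes are known targets of MYC, a transcription factor that binds with MAX to the E-box letters CACGTG.

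Promoter sequences are shown for 5 members as examples, and any link between their letters and the way each gene moved was not tested. Windows came from RefSeq on GRCm38.p6, and 43 of the 49 members had one of 250 bases before to 50 after a transcript start. Rrs1, Npm1, Fbl, Bop1, Rrp12 and Tcof1 were without one. CACGTG reads the same on both strands. It stood in the window of 8 of the 43 members (18.6%), of 19.1% of the 94 other listed pathway genes, of 1141 of the 9546 genes with a window that were tested in both experiments, and of 8.1% of all 27025 genes in the table. The 250 bases before the start are printed 5′ to 3′ with CACGTG in capitals. Rrn3 held it 215 and 48 bases before its start and Nop2 60 bases before. Dkc1 and Nolc1 held none in the window, and Pno1 held its copy after the start, outside the part printed. The windows lie at chr16:13780449-13780698 (plus strand), chr6:125131633-125131882 (plus), chrX:75095604-75095853 (plus), chr19:46075597-46075846 (plus) and chr11:17211590-17211839 (minus).
Rrn3: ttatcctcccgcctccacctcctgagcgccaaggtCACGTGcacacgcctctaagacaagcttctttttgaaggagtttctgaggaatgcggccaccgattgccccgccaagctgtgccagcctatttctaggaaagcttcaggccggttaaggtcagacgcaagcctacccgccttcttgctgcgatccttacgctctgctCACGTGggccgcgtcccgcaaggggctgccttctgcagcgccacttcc
Nop2: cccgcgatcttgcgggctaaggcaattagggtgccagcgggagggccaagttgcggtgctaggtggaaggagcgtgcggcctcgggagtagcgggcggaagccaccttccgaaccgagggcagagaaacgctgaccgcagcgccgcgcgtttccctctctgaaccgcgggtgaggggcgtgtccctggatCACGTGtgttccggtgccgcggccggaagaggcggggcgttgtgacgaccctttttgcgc
Dkc1: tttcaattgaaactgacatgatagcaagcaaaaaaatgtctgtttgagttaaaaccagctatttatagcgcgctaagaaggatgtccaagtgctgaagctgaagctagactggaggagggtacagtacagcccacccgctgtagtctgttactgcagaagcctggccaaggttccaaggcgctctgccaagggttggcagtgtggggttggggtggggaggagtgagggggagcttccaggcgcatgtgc
Nolc1: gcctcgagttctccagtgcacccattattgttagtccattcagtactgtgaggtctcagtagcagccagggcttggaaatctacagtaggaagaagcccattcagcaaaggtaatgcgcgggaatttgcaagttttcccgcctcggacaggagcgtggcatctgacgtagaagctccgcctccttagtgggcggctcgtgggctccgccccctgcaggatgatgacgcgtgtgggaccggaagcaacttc
Pno1: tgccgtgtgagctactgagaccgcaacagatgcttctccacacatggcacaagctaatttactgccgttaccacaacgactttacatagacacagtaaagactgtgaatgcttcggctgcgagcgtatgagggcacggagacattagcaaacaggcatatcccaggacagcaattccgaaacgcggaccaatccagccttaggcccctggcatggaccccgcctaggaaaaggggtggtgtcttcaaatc
The remaining members with the letters were Imp4, with a copy 121 bases before its start, and Ltv1, Pes1, Tsr1 and Wdr43, with copies after the start. Of the 26 members with a window that were called lower with PF-9363, 3 held the letters, against 1 of 8 called higher and 4 of 9 not called. These counts describe letters in a window, and binding was not measured.

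Sequencing depth ran from 60147266 to 68730322 counts for luciferase and SETBP1-D868N and from 7083731 to 10359093 for DMSO and PF-9363. Member genes had at least 1680 counts in every library of the first experiment and at least 69 in the second. Values are CPM, counts scaled to the library total after TMM adjustment of that total, and a gene was called when edgeR's quasi-likelihood test gave a Benjamini-Hochberg adjusted p under 0.05 over all genes tested. The first experiment used 500 ng of RNA and the second 100 ng, with another library preparation, so comparisons were made only within an experiment. Mouse Setbp1 had 5, 6 and 6 counts with luciferase and 23, 20 and 24 with SETBP1-D868N. In the second experiment it had at most 2 counts in a library, and the labels do not say whether reads of the transgene are counted there. Progenitor genes such as Kit (180.5 CPM with luciferase, 69.8 with DMSO) and Myb (196 and 314 CPM) were expressed. The 10 neutrophil genes listed summed to 25060 to 26090 CPM with luciferase and 19120 to 22390 with DMSO, so the cultures also held transcripts of maturing cells. Mast cell and basophil genes, 10 in all, summed to 5280 to 5484 CPM with luciferase and 1195 to 1538 CPM with DMSO. The labels do not say whether libraries of a group came from separate cultures or animals, so p-values measure the spread between these libraries, which may be technical. Less RNA per cell and fewer cells of a type cannot be told apart in these bulk samples.

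With SETBP1-D868N, nearly all members rose, each by a small amount. Of the 49 members, 47 were called higher than with luciferase and 0 lower, where 24.5% of all 15794 genes tested were called higher and 22.7% lower. The median log2 fold change of the members was 0.38, against 0.004 for all genes tested, and no member changed 2-fold. Scaled by library size alone, 4905 genes were called higher and 2997 lower in place of 3869 and 3579, and 49 members were called higher. Members ranged from 0.17 for Pes1 to 0.58 for Wdr12, and the middle 50% of them lay between 0.30 and 0.42. In 48 members the 3 SETBP1-D868N libraries all lay above the 3 luciferase libraries and in 0 they lay below, where 29.4% of all genes lay above without overlap and 27.3% below. Polr1a was the exception.

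**Figure D1:**
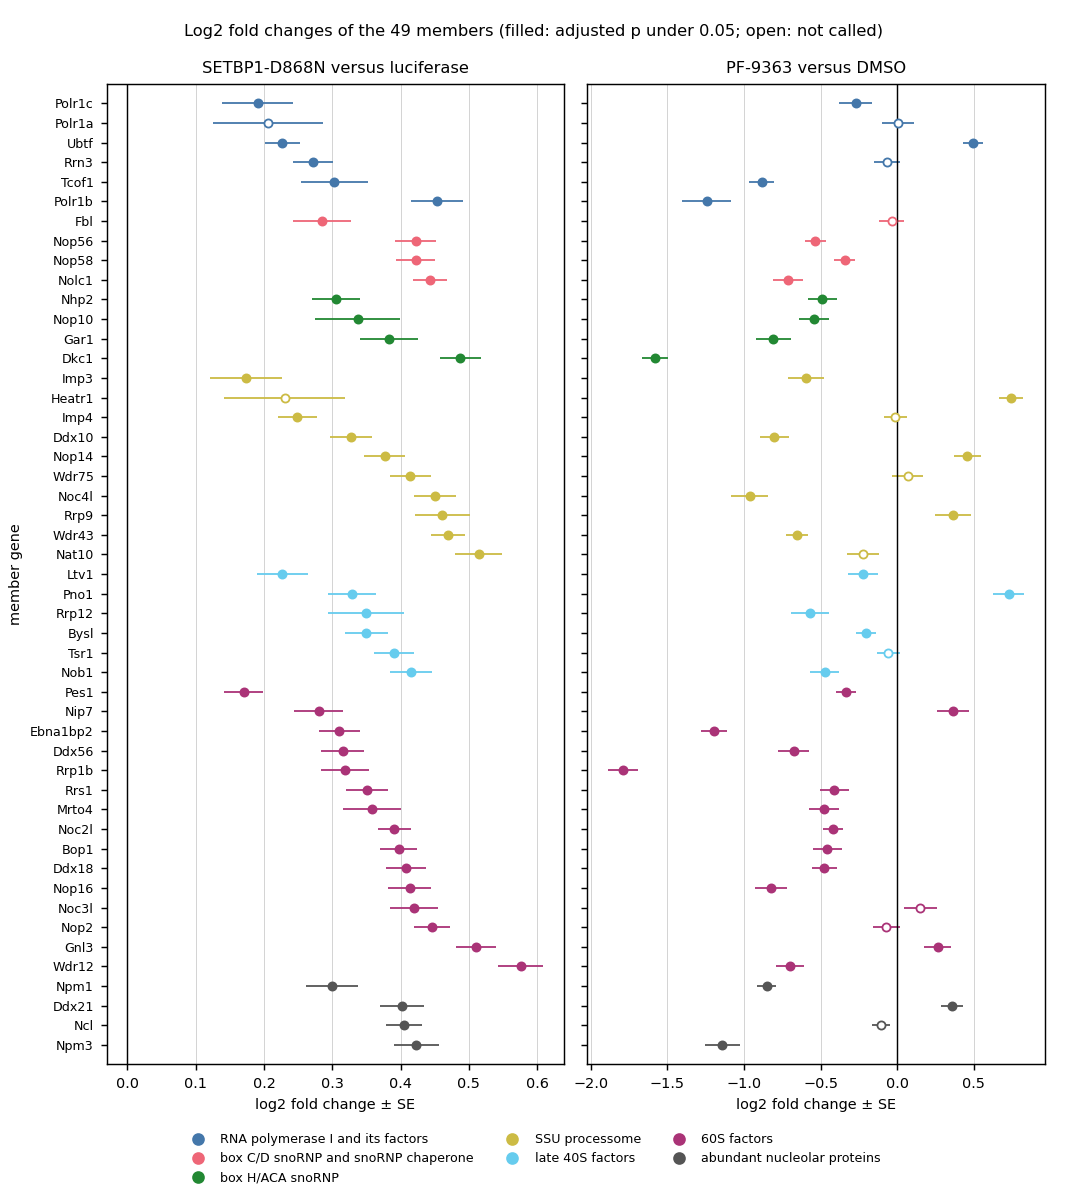
Log2 fold change with its standard error (x axis) for each of the 49 members (y axis), grouped by role and ordered within a role by the first comparison, for SETBP1-D868N against luciferase (left) and PF-9363 against DMSO (right). All 49 points on the left lie above 0, between 0.17 and 0.58, while on the right they spread from −1.79 to 0.74. Filled points passed an adjusted p of 0.05, and on the right the filled points above 0 drop from 8 to 4 when counts are scaled by library size alone.

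Summed over the 49 members, the level was 5558, 5525 and 5450 CPM in the luciferase libraries and 7226, 6902 and 7135 CPM in the SETBP1-D868N libraries. This was 128.6% ± 3.1 (SD, n = 3) of the luciferase mean. Each of the 7 role groups was higher in every SETBP1-D868N library than in every luciferase library, from 120.3% ± 3.0 (SD, n = 3) of the luciferase mean for RNA polymerase I and its factors to 132.9% ± 2.5 (SD, n = 3) for the box C/D group. Replicates were close, with a median coefficient of variation of 1.74% among members with luciferase and 2.77% with SETBP1-D868N.

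**Figure D2:**
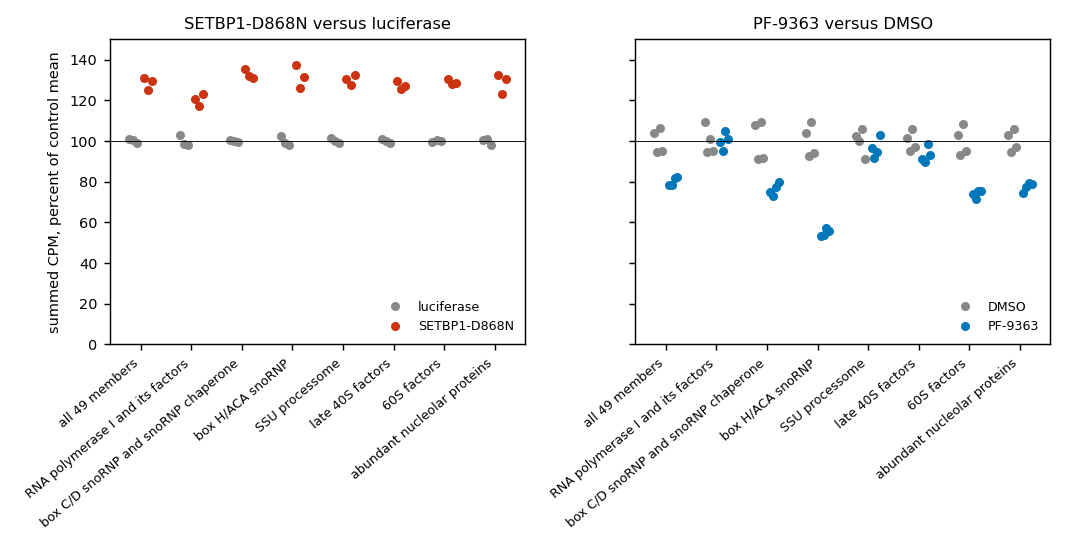
Summed CPM of the members of each role group in every library, as a percent of the mean of the control group (y axis), for the first experiment (left, 3 libraries per group) and the second (right, 4 per group). Each point is 1 library. SETBP1-D868N libraries lie at 117.2% to 137.3% in the 7 groups, and PF-9363 libraries range from 53.2% in the box H/ACA group to 104.8% in the RNA polymerase I group.

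RNA polymerase I and its factors had the lowest median of the 7 groups with SETBP1-D868N, at 0.25, and 5 of 6 were called higher. Polr1b, the second-largest subunit of the enzyme (chr2:129100995-129126594, plus strand, GRCm38), had 45.2, 43.3 and 43.7 CPM with luciferase and 62.7, 57.5 and 60.8 CPM with SETBP1-D868N. The groups did not overlap, and the log2 fold change was 0.45 (edgeR adjusted p 1.82e-06, SE 0.038). Tcof1, which encodes treacle, a factor that brings the polymerase to ribosomal DNA, had 159, 146 and 145 CPM with luciferase and 181, 178 and 197 CPM with SETBP1-D868N, a log2 fold change of 0.30 (edgeR adjusted p 9.35e-04, SE 0.049). Its highest luciferase library stayed below its lowest SETBP1-D868N library. Rrn3, which joins the polymerase to its promoter, rose by 0.27, Ubtf, which binds along ribosomal DNA, by 0.23, and Polr1c, a subunit shared with RNA polymerase III, by 0.19. Polr1a, the largest subunit, had 66.8, 57.8 and 57.6 CPM with luciferase and 65.5, 68.6 and 76.1 CPM with SETBP1-D868N. Here luciferase 1 exceeded SETBP1-D868N 1, and the log2 fold change of 0.21 was not called (edgeR adjusted p 0.0834). Without luciferase 1 it was 0.28 (edgeR adjusted p 0.00741).

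The 4 members of the box C/D group were called higher, with a median log2 fold change of 0.42. Nolc1, a chaperone of both snoRNP classes, had 194, 192 and 187 CPM with luciferase and 259, 261 and 259.6 CPM with SETBP1-D868N, a log2 fold change of 0.44 (edgeR adjusted p 9.65e-08, SE 0.025). Nop56, a core protein of the box C/D particle, had 157, 162 and 166 CPM and 222, 217 and 210.4 CPM in turn, a log2 fold change of 0.42 (edgeR adjusted p 4.87e-07, SE 0.030). In both genes every SETBP1-D868N library was above every luciferase library. Nop58, the partner of Nop56, rose by 0.42, and Fbl, the methyltransferase fibrillarin, by 0.28.

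In the box H/ACA group, which is also part of telomerase, 4 of 4 members rose, with a median of 0.36 on the log2 scale. Dkc1, the pseudouridine synthase dyskerin (chrX:75095854-75109777, plus strand, GRCm38), had 114, 114 and 114 CPM with luciferase and 166, 154 and 160.0 CPM with SETBP1-D868N. The luciferase libraries lay within 1 CPM of each other, far from the nearest SETBP1-D868N library, and the log2 fold change was 0.49 (edgeR adjusted p 1.83e-07, SE 0.030). Gar1 had 45.8, 42.5 and 43.0 CPM with luciferase and 59.3, 53.9 and 57.9 CPM with SETBP1-D868N, again without overlap, a log2 fold change of 0.38 (edgeR adjusted p 1.72e-05, SE 0.043). Nop10 and Nhp2, which complete the core particle, rose by 0.34 and 0.30.

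Of the 10 SSU processome members, 9 were called higher, with a median log2 fold change of 0.40. Nat10, which acetylates 18S ribosomal RNA, had 59.0, 60.5 and 59.3 CPM with luciferase and 85.8, 81.5 and 88.2 CPM with SETBP1-D868N, a log2 fold change of 0.51 (edgeR adjusted p 2.94e-07, SE 0.034). Wdr43 had 113, 112 and 113 CPM with luciferase and 158, 154 and 156 CPM with SETBP1-D868N, a log2 fold change of 0.47 (edgeR adjusted p 6.69e-08, SE 0.025). Neither gene showed overlap between groups. Rrp9, the protein specific to the U3 snoRNP that guides the first cuts, rose by 0.46. Imp3, which helps U3 pair with the precursor, rose by 0.17 with an edgeR adjusted p of 0.0169, and this call was lost without luciferase 2 (0.16, adjusted p 0.0733) or SETBP1-D868N 1 (0.105, adjusted p 0.0690). Its partner Imp4 rose by 0.25. Heatr1, a large scaffold of the complex, had 84.8, 74.8 and 73.9 CPM with luciferase and 86.4, 86.1 and 101 CPM with SETBP1-D868N. The groups did not overlap, but luciferase 1 and SETBP1-D868N 3 stood above their groups, and the log2 fold change of 0.23 was not called (edgeR adjusted p 0.0874). Without luciferase 1 the log2 fold change of Heatr1 was 0.30 (edgeR adjusted p 0.0373).

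All 6 late 40S factors were called higher, with a median of 0.35. Nob1, the nuclease that makes the end of 18S ribosomal RNA, had 46.7, 48.2 and 46.9 CPM with luciferase and 64.3, 62.5 and 62.2 CPM with SETBP1-D868N, a log2 fold change of 0.41 (edgeR adjusted p 7.59e-07, SE 0.031). Tsr1, a GTPase-like protein bound to the immature subunit, had 72.0, 70.1 and 70.9 CPM with luciferase and 95.3, 91.1 and 92.8 CPM with SETBP1-D868N, a log2 fold change of 0.39 (edgeR adjusted p 7.37e-07, SE 0.029). The spread within a group was a small part of the gap between groups in both. Bysl, Rrp12, Pno1 and Ltv1 rose by 0.35, 0.35, 0.33 and 0.23.

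The 60S factors were the largest group, and 15 of 15 were called higher, with a median log2 fold change of 0.39. Wdr12 (chr1:60069785-60098645, minus strand, GRCm38) forms a complex with Pes1 and Bop1 that is needed to make 28S ribosomal RNA. It had 53.8, 53.0 and 52.4 CPM with luciferase and 81.5, 79.6 and 76.4 CPM with SETBP1-D868N, a log2 fold change of 0.58 (edgeR adjusted p 9.19e-08, SE 0.033). Its partners rose by less, Bop1 by 0.40 and Pes1 by 0.17. Gnl3, the nucleolar GTPase nucleostemin of stem and dividing cells, had 90.6, 91.9 and 92.5 CPM with luciferase and 132, 133 and 127 CPM with SETBP1-D868N, a log2 fold change of 0.51 (edgeR adjusted p 8.73e-08, SE 0.029). For both genes the groups were apart. Apart from Wdr12, Gnl3 and Pes1, the 60S factors lay between 0.28 for Nip7 and 0.45 for the methyltransferase Nop2, with the helicase Ddx18 at 0.41.

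Ncl, Npm1, Npm3 and Ddx21, proteins that fill the nucleolus, were called higher too, with a median of 0.40 on the log2 scale. Npm3, a histone chaperone related to Npm1, had 51.9, 51.0 and 50.9 CPM with luciferase and 70.9, 66.2 and 68.9 CPM with SETBP1-D868N, a log2 fold change of 0.42 (edgeR adjusted p 1.01e-06, SE 0.033). Ncl, which encodes nucleolin, had 899, 915 and 901 CPM with luciferase and 1237, 1160 and 1199 CPM with SETBP1-D868N, a log2 fold change of 0.41 (edgeR adjusted p 3.12e-07, SE 0.027). In both, the lowest SETBP1-D868N library was above the highest luciferase library. Npm1, or nucleophosmin, rose by 0.30 and the helicase Ddx21 by 0.40.

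**Figure D3:**
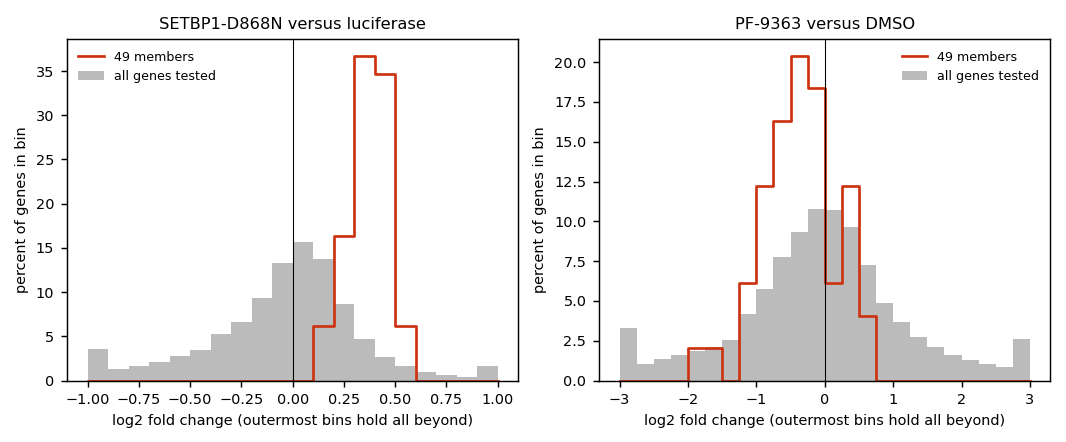
Distribution of log2 fold changes (x axis) among the 49 members (red line) and all genes tested (grey bars), as the percent of genes in each bin (y axis), for SETBP1-D868N against luciferase (left) and PF-9363 against DMSO (right). Members form a narrow peak near 0.38 on the left and a wide one with a median of −0.42 on the right, where the median of all genes is 0.004 and −0.038.

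Other genes of the pathway, taken from 6 lists, mostly rose with SETBP1-D868N as well. Of 112 tested, 97 were called higher and 1 lower, where 24.5% and 22.7% of all genes tested were. Their median log2 fold change was 0.28. The largest were Znhit6, a box C/D assembly factor (0.54), and Nle1 and Ppan, factors of 60S assembly (0.52 and 0.50). Riok3, listed with the late 40S kinases, was the gene called lower (−0.145). The 79 genes for cytosolic ribosomal proteins, the parts rather than the builders of the ribosome, had a median of 0.008, and 7 were called higher and 1 lower. These counts turned on the settings and on single libraries, with 17 higher and 1 lower under library-size scaling, 3 and 3 with DESeq2 and 9 and 4 without the filter. They were 3 and 1 without luciferase 1, 2 or 3, 2 and 6 without SETBP1-D868N 1, 12 and 1 without SETBP1-D868N 2 and 4 and 1 without SETBP1-D868N 3. The lower count was 2 with RLE, with a mean count of at least 10 and with the replicate block, each beside 6 higher. Of 10 noncoding genes that host snoRNAs, 7 were called higher (median 0.29). Myc rose from 173 ± 3.85 to 241 ± 4.68 CPM (SD, n = 3 each), or by 0.48 on the log2 scale (edgeR adjusted p 1.03e-07, SE 0.028). It was the single gene called higher on a list of 8 with MAX and its other partners. On that list 4 were called lower, namely Mxd1 (−0.72), Mxi1 (−0.52), Mxd3 (−0.29) and Mnt (−0.11), which compete with MYC for MAX, and the median was −0.146.

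Markers of cell types also moved in this experiment, in which 24.5% of all genes tested were called higher and 22.7% lower. Of 10 progenitor genes, 7 were called higher and 2 lower (Kit and Flt3), with a median of 0.41 on the log2 scale, and their sums were 980.7 to 1011 CPM with luciferase and 1175 to 1227 CPM with SETBP1-D868N. Mast cell and basophil genes had 4 of 10 called higher and 6 lower, with a median log2 fold change of −0.61. Their sums were 5280 to 5484 CPM with luciferase and 5687 to 5807 CPM with SETBP1-D868N. Of the erythroid list, 7 genes passed the filter, with 3 called higher and 0 lower (sums 53.3 to 54.7 CPM and 64.8 to 66.7 CPM), and of the lymphoid list 3, with 1 called higher and 1 lower (sums 61.8 to 65.4 CPM and 82.8 to 88.8 CPM). All 10 monocyte and macrophage genes were called lower, and their summed level went from 2522 to 2653 CPM across the luciferase libraries to 1509 to 1711 CPM with SETBP1-D868N. Neutrophil genes summed to 25060 to 26090 CPM with luciferase and 17180 to 19720 CPM with SETBP1-D868N. Of these 10 genes, 4 were called higher and 6 lower, with a median log2 fold change of −0.74. Of 12 cell division genes, 9 were called higher (5 without luciferase 3), with a median of 0.095 on the log2 scale, and their sums overlapped at 3135 to 3348 CPM and 3273 to 3477 CPM. The part of these shifts in the rise of the members was not tested.

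With PF-9363, most members fell, but unevenly, and some rose. Of the 49, 31 were called lower than with DMSO and 8 higher, where 39.4% of all 13456 genes tested were called lower and 36.6% higher. The median log2 fold change of the members was −0.42, or 1.34-fold lower, against −0.038 for all genes tested, and the middle 50% lay between −0.70 and −0.04. Fold changes of at least 2 were found for 5 members, all lower, namely Rrp1b, Dkc1, Polr1b, Ebna1bp2 and Npm3. Among all 13456 genes tested, 2433 were called at least 2-fold lower and 2126 at least 2-fold higher. The 4 PF-9363 libraries all lay below the 4 DMSO libraries in 30 members and above in 6, where 36.3% of all genes lay below without overlap and 34.0% above. The median absolute log2 fold change was 0.48 for the members and 0.65 for all genes tested.

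The 49 members summed to 4878, 4431, 4998 and 4476 CPM with DMSO (replicates 1 to 4) and to 3682, 3681, 3847 and 3857 CPM with PF-9363. PF-9363 thus stood at 80.2% ± 2.1 (SD, n = 4) of the DMSO mean, without overlap. A large part of that drop lay in Npm1, whose mean went from 901.2 to 499.2 CPM. The mean of the whole sum went from 4696 to 3767 CPM. Box H/ACA genes stood at 54.9% ± 1.8 (SD, n = 4) of the DMSO mean, and the box C/D, 60S and abundant groups at 76.2% ± 3.0, 74.1% ± 1.7 and 77.5% ± 2.3 (SD, n = 4 each), with library ranges that overlap each other. The box H/ACA sum went from a mean of 234.6 to 128.8 CPM, and Dkc1 within it from 86.5 to 28.9 CPM. The abundant sum, which holds Npm1, went from a mean of 2048 to 1588 CPM. RNA polymerase I and its factors stood at 100.0% ± 4.0 (SD, n = 4), a sum in which Ubtf, called higher, has the largest CPM. Without Ubtf, a choice made after its values were seen, the 5 other genes summed to 201.2 to 245.5 CPM with DMSO and 155.2 to 168.2 CPM with PF-9363, or 72.8% ± 2.4 (SD, n = 4) of the DMSO mean. In the SSU processome (96.6% ± 4.8, SD, n = 4) and late 40S groups (93.1% ± 3.9, SD, n = 4) the summed levels of PF-9363 and DMSO libraries overlapped.

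These values depend on how counts were scaled. Library size alone in place of TMM moved the median of all genes from −0.038 to −0.27 and that of the members to −0.65, with 4 members called higher and 39 lower, while all genes went from 4921 higher and 5307 lower to 3775 and 6653. Polr1a, Rrn3, Fbl, Imp4, Nat10, Tsr1, Nop2 and Ncl, not called with TMM, were among the members called lower under that scaling. DMSO libraries also differed among themselves in these genes. In 33 members (67.3%) both DMSO 1 and DMSO 3 were higher than both DMSO 2 and DMSO 4, which held for 18.2% of all genes tested, and the reverse held for 1 member (2.04%) and for 20.1% of all genes. Without DMSO 1 and 3 together, the median of the members was −0.32, and without DMSO 2 and 4 together −0.52.

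With PF-9363, 1 of 6 RNA polymerase I genes was called higher and 3 lower, where 36.6% and 39.4% of all genes tested were. The median log2 fold change was −0.17. Polr1b had 36.9, 29.0, 28.2 and 25.1 CPM with DMSO and 17.6, 10.4, 10.7 and 10.8 CPM with PF-9363. All PF-9363 libraries were below all DMSO libraries, although PF-9363 1 stood above the other three, and the gene fell by 1.24 on the log2 scale (edgeR adjusted p 9.53e-07, SE 0.16). Tcof1 had 89.2, 79.4, 80.2 and 69.2 CPM with DMSO and 41.8, 46.0, 39.2 and 44.6 CPM with PF-9363, with no overlap, and fell by 0.89 on the log2 scale (edgeR adjusted p 1.15e-10, SE 0.083). Ubtf (chr11:102304560-102319742, minus strand, GRCm38) went the other way, with 161, 134, 148 and 153 CPM with DMSO and 207, 199, 227 and 207 CPM with PF-9363. Its groups were apart and the log2 fold change was 0.49 (edgeR adjusted p 9.38e-08, SE 0.065). Polr1c was called lower at −0.27 (edgeR adjusted p 0.0256), but lost the call under DESeq2 (adjusted p 0.0562) and without DMSO 1, DMSO 3 or PF-9363 4 (adjusted p 0.0640, 0.0806 and 0.114). For Polr1c, leaving out DMSO 1 and 3 together gave −0.163, which was not called (edgeR adjusted p 0.279). Rrn3 (−0.069) and Polr1a (0.005) were not called.

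In the box C/D group 3 of 4 members were called lower and 0 higher, where 39.4% and 36.6% of all genes tested were. Their median log2 fold change was −0.44. Nolc1 had 122, 98.8, 112 and 86.2 CPM with DMSO and 57.6, 63.7, 60.2 and 73.5 CPM with PF-9363, and fell by 0.71 on the log2 scale (edgeR adjusted p 3.46e-06, SE 0.10). Nop56 had 133, 114, 137 and 117 CPM with DMSO and 87.1, 86.5, 80.3 and 91.4 CPM with PF-9363, and fell by 0.53 on the log2 scale (edgeR adjusted p 1.08e-07, SE 0.071). Both were lower in every PF-9363 library than in any DMSO library. Nop58 fell by 0.34, while Fbl, with a log2 fold change of −0.036, was not called.

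Box H/ACA genes were lower throughout, with 4 of 4 called, where 39.4% of all genes tested were called lower. Their median log2 fold change was −0.68. Dkc1 had 88.5, 91.1, 87.7 and 78.7 CPM with DMSO and 31.0, 30.8, 27.7 and 25.9 CPM with PF-9363. The highest PF-9363 library held less than any DMSO library, and the gene fell by 1.58 on the log2 scale (edgeR adjusted p 3.03e-16, SE 0.083). Gar1 had 35.3, 29.9, 35.3 and 30.4 CPM with DMSO and 15.0, 18.9, 22.1 and 19.2 CPM with PF-9363, without overlap, and fell by 0.81 on the log2 scale (edgeR adjusted p 2.72e-07, SE 0.11). Nop10 fell by 0.54 and Nhp2 by 0.49.

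Of 10 SSU processome members, 3 were called higher, 4 lower and 3 not called, shares near the 36.6% higher and 39.4% lower of all genes tested, and the median log2 fold change was −0.12. Heatr1 (chr13:12395027-12440289, plus strand, GRCm38) had 56.5, 62.1, 64.0 and 49.1 CPM with DMSO and 102, 91.0, 95.1 and 98.5 CPM with PF-9363. Every PF-9363 library exceeded every DMSO library, and the log2 fold change of 0.74 (edgeR adjusted p 1.45e-09, SE 0.078) was the highest among the members. Nop14 was called higher as well, at 0.46. Rrp9 was called higher at 0.36, a call lost under library-size scaling (0.14, adjusted p 0.288). Noc4l, which pairs with Nop14 in the complex, moved against it, with 25.8, 28.2, 30.7 and 27.2 CPM with DMSO and 13.8, 11.6, 17.3 and 15.0 CPM with PF-9363. It fell by 0.96 on the log2 scale (edgeR adjusted p 2.76e-08, SE 0.12). Ddx10, a helicase, had 50.2, 48.7, 46.5 and 45.3 CPM with DMSO and 24.9, 25.5, 26.1 and 32.3 CPM with PF-9363, and fell by 0.80 on the log2 scale (edgeR adjusted p 1.15e-08, SE 0.095). Neither overlapped between groups, though PF-9363 4 held more Ddx10 than the rest of its group. Wdr43 fell by 0.66 and Imp3 by 0.60. Wdr75 (0.067), Imp4 (−0.012) and Nat10 (−0.22, edgeR adjusted p 0.0588) were not called, and Nat10 passed in 6 of the alternatives, from −0.235 with the replicate block to −0.45 under library-size scaling.

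Late 40S factors had 1 of 6 called higher and 4 lower, where 36.6% and 39.4% of all genes tested were. Their median log2 fold change was −0.21. Pno1 (chr11:17203198-17211568, minus strand, GRCm38), which binds Nob1 on the immature subunit, had 29.4, 25.7, 34.5 and 25.2 CPM with DMSO and 44.7, 44.3, 51.8 and 49.6 CPM with PF-9363, a log2 fold change of 0.73 (edgeR adjusted p 1.93e-07, SE 0.10). Its groups were apart, and its partner Nob1 was called in the opposite direction, lower by 0.47 (edgeR adjusted p 6.64e-05). Rrp12, which helps both subunits leave the nucleus, had 27.8, 24.8, 27.5 and 18.4 CPM with DMSO and 15.9, 15.8, 16.8 and 17.7 CPM with PF-9363. DMSO 4 was far below the other DMSO libraries but still above all PF-9363 libraries, and the gene fell by 0.57 on the log2 scale (edgeR adjusted p 1.74e-04, SE 0.12). Bysl fell by 0.20. The call of Ltv1 at −0.22 (edgeR adjusted p 0.0428) was lost in 10 of 16 alternatives, among them leaving out DMSO 1, DMSO 3 or any single PF-9363 library, with adjusted p from 0.0515 to 0.170 in those 6. Tsr1 (−0.059) was not called.

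Among 15 genes for 60S factors, 11 were called lower and 2 higher, where 39.4% and 36.6% of all genes tested were. Their median log2 fold change was −0.46. Rrp1b (chr17:32036100-32062865, plus strand, GRCm38), a nucleolar protein of 60S assembly, had 51.4, 45.2, 47.8 and 46.0 CPM with DMSO and 14.0, 12.8, 13.5 and 14.5 CPM with PF-9363. It fell by 1.79 on the log2 scale (edgeR adjusted p 1.06e-15, SE 0.099), the lowest value among the members. Ebna1bp2, another 60S assembly factor, had 77.8, 69.8, 84.7 and 71.7 CPM with DMSO and 33.5, 36.9, 32.8 and 29.6 CPM with PF-9363, and fell by 1.20 on the log2 scale (edgeR adjusted p 3.89e-13, SE 0.086). For both, PF-9363 libraries held less than DMSO libraries without exception. Nop16, Wdr12 and the helicase Ddx56 followed, falling by 0.83, 0.70 and 0.68. Wdr12 partners Bop1 and Pes1 fell by 0.46 and 0.34. Rrs1, which helps place the 5S particle, fell by 0.41, and its call was lost without DMSO 1 and 3 together (−0.22, adjusted p 0.0525). Nip7 (0.36) and Gnl3 (0.26) were called higher, although some of their libraries overlapped. Under library-size scaling neither was called (0.13 and 0.031, edgeR adjusted p 0.253 and 0.749). Without DMSO 2 and 4 together both calls were lost as well (0.164 and 0.145, edgeR adjusted p 0.171 and 0.175). Gnl3 also lost its call without DMSO 4 (edgeR adjusted p 0.0517) or PF-9363 4 (edgeR adjusted p 0.0555). Nop2 (−0.072) and Noc3l (0.15) were not called.

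The abundant nucleolar proteins had 1 of 4 called higher and 2 lower with PF-9363, where 36.6% and 39.4% of all genes tested were. Their median log2 fold change was −0.48. Npm1 (chr11:33152287-33163206, minus strand, GRCm38), which holds the granular nucleolus together, had 908, 842, 982 and 873 CPM with DMSO and 465, 485, 521 and 526 CPM with PF-9363. The groups did not overlap, and the gene fell by 0.85 on the log2 scale (edgeR adjusted p 6.85e-13, SE 0.063). Npm3 had 40.6, 36.0, 45.6 and 36.9 CPM with DMSO and 14.3, 19.9, 18.2 and 20.0 CPM with PF-9363, and fell by 1.14 on the log2 scale (edgeR adjusted p 3.45e-10, SE 0.11). Here too PF-9363 was lower in every library. Ncl had 1025, 939, 1006 and 969 CPM with DMSO and 887, 938, 916 and 916 CPM with PF-9363. All its PF-9363 libraries lay just below all DMSO libraries, but the log2 fold change of −0.11 was not called (edgeR adjusted p 0.0903). It was called without DMSO 2 (−0.135, edgeR adjusted p 0.0368) and without DMSO 2 and 4 together (−0.166, edgeR adjusted p 0.0253). Library-size scaling also gave a call (−0.34, edgeR adjusted p 3.04e-06). Ddx21 was called higher at 0.36, except under library-size scaling (0.12, adjusted p 0.111).

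**Figure D4:**
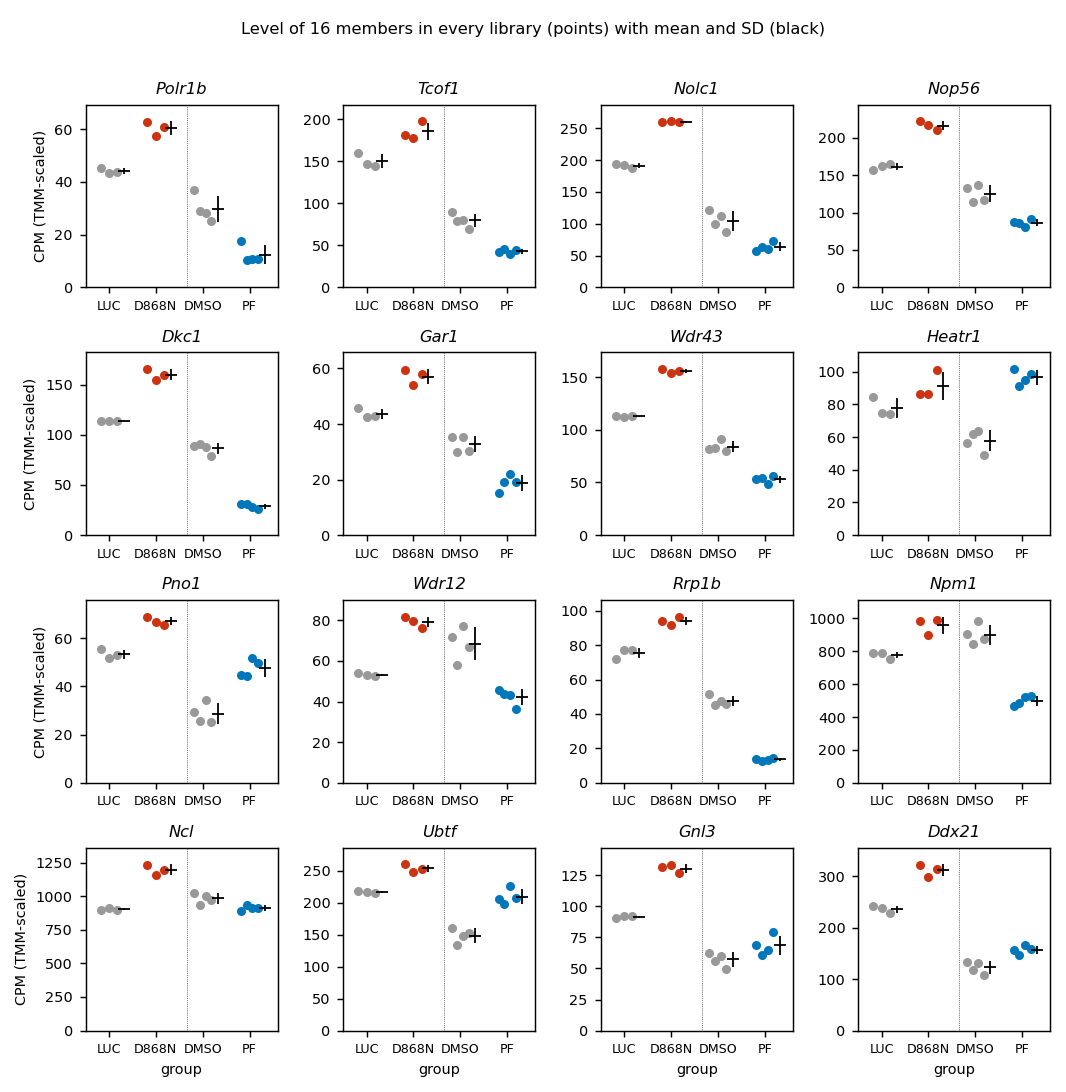
CPM (TMM-scaled, y axis from 0) of 16 members in each of the 14 libraries, with 1 point per library and the mean and SD in black beside each group (LUC, luciferase, and D868N, SETBP1-D868N, 3 libraries each, then DMSO and PF, PF-9363, 4 each). Dkc1 and Rrp1b in PF-9363 libraries lie well below DMSO, Heatr1, Pno1 and Ubtf lie above, and levels left and right of the dotted line come from separate experiments.

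Other listed genes of the pathway mostly fell as well. Of 112 tested, 74 were called lower and 8 higher with PF-9363, with a median log2 fold change of −0.38. The lowest were Znhit3 (−2.51), Naf1 (−2.41) and Ruvbl2 (−2.18), all listed with snoRNP assembly. The other snoRNP list had 7 of 9 called lower (median −1.33) and the RNA exosome, which trims precursor RNA, 11 of 13 (median −1.22). The highest were the SSU processome genes Utp18 (0.71) and Aatf (0.59) and the 60S ATPase Mdn1 (0.55). Of 35 other SSU processome genes, 14 were called lower, a share near the 39.4% of all genes tested, and 3 higher, where 36.6% of all genes were (median −0.14).

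Of 78 cytosolic ribosomal protein genes, 67 were called lower and 3 higher with PF-9363, where 39.4% and 36.6% of all genes tested were. Their median was −0.40. The higher count was 0 under library-size scaling and 1 when DMSO 1, DMSO 2, DMSO 2 and 4 together, PF-9363 3 or PF-9363 4 was left out, while the lower count stayed between 62 and 74 in the alternatives run. Noncoding snoRNA hosts had 5 of 9 called higher and 2 lower, where 36.6% and 39.4% of all genes tested were. Their median was 0.39, and the highest were Snhg12 (1.81), Snhg1 (1.25) and Gas5 (1.01). Both hosts called lower fell at least 2-fold, the lowest at −1.235. Myc fell from 178 ± 6.12 to 30.3 ± 2.91 CPM (SD, n = 4 each), by 2.55 on the log2 scale (edgeR adjusted p 4.90e-22, SE 0.075). Of the 8 genes on the list of MYC and its partners, 4 were called lower, with Mxd3 (−1.01), Mxd4 (−0.68) and Mxi1 (−0.46) beside Myc, and 2 higher, Mnt (0.92) and Mga (0.60), with a median of −0.27.

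Cell division and cell type markers moved in this experiment too, in which 36.6% of all genes tested were called higher and 39.4% lower. All 12 cell division genes were called lower (median log2 fold change −2.65), with summed levels of 2868 to 3134 CPM with DMSO and 454.5 to 801 CPM with PF-9363. Monocyte and macrophage genes had 9 of 10 called higher, with sums of 1658 to 1884 CPM and 9147 to 10940 CPM, and mast cell and basophil genes 9 of 10, with sums of 1195 to 1538 CPM and 4590 to 5546 CPM. Neutrophil genes had 2 of 10 called higher and 5 lower, with sums of 19120 to 22390 CPM and 16720 to 18200 CPM. Progenitor genes had 4 of 9 tested called higher, among them Kit and Gata2, and 4 lower, among them Myb and Flt3. Both shares were near those of all genes tested. The progenitor sums were 478.8 to 499.6 CPM with DMSO and 551.4 to 610.6 CPM with PF-9363. Of the erythroid list, 3 genes passed the filter, with 2 called higher and 0 lower (sums 10.2 to 12.8 CPM and 24.8 to 36.6 CPM). Of the lymphoid list, 2 passed, Nkg7 and Cd79b, and both were called lower (sums 41.4 to 58.2 CPM and 2.49 to 3.36 CPM). The part of these shifts in the fall of the members was not tested.

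Set side by side, 31 of 49 members (63.3%) rose with SETBP1-D868N and fell with PF-9363, against 18.1% of the 12376 genes tested in both experiments. No library was shared between the comparisons. Of the genes called higher with SETBP1-D868N, 31 of 47 members and 2240 of 3568 genes in all (62.8%) were called lower with PF-9363, so the members stood near other genes that rose. The same holds for genes called higher in both comparisons, which were 7 of 47 members (14.9%) and 576 of 3568 genes (16.1%). Those 7 were Ubtf, Nop14, Rrp9, Pno1, Nip7, Gnl3 and Ddx21. A further 9 members rose with SETBP1-D868N and were not called with PF-9363, Heatr1 was called with PF-9363 alone, and Polr1a was called in neither.

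**Figure D5:**
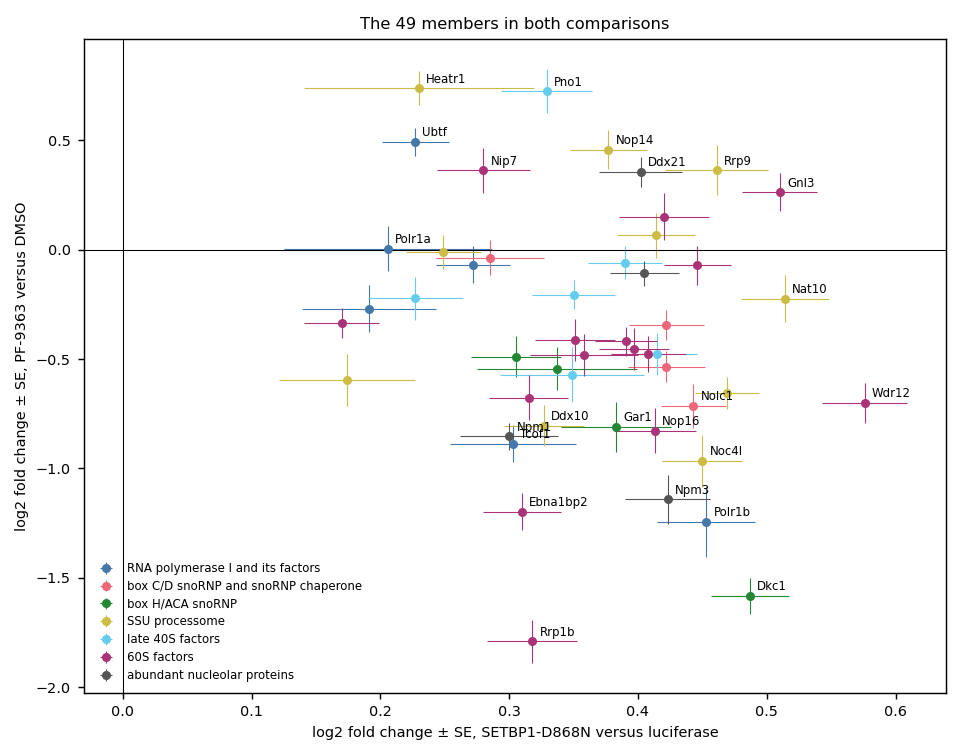
Log2 fold change with its standard error for SETBP1-D868N against luciferase (x axis) and PF-9363 against DMSO (y axis), with 1 point per member, coloured by role. All 49 points lie right of 0, from 0.17 to 0.58, while 38 lie below 0 and 11 above on the y axis. Under library-size scaling Noc3l, Polr1a and Wdr75 move from above 0 to below it.

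Per kilobase of the principal transcript, Npm1 had the highest level in all 4 groups, at 476 CPM per kb with luciferase, 586 with SETBP1-D868N, 552 with DMSO and 306 with PF-9363. Ncl was second in all 4, at 110.4, 146, 120.1 and 111 CPM per kb. Nop56, Nhp2, Nop58 and Fbl held ranks 3 to 6 in each group, in changing order, at 71.0 to 86.1 CPM per kb with luciferase and 46.0 to 84.0 with PF-9363. Lowest were Wdr12 with luciferase (5.30), Polr1a with SETBP1-D868N (7.60) and DMSO (4.29), and Rrp1b with PF-9363 (2.81 CPM per kb). These levels rest on the transcript length used, which was 8202 bases for Ncl and 10012 for Wdr12. Heatr1 moved from rank 44 of 49 with DMSO to rank 29 with PF-9363, and Npm3 from 7 to 18.

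In the GENCODE M21 annotation of GRCm38, exons of 19 members overlap a gene on the opposite strand and those of 4 overlap genes on their own strand, namely Nop56, Nop58, Gnl3 and Ncl, with snoRNA genes among them. Dkc1 overlaps Mpp1, Rrp1b overlaps Hsf2bp, Heatr1 overlaps Lgals8 and Pno1 overlaps Wdr92 on the opposite strand, and whether the counting used strand is not given in the sources used here. Among the 28 members with no such overlap, 28 rose with SETBP1-D868N (median 0.35 on the log2 scale), and with PF-9363 3 were called higher and 19 lower (median −0.48).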

How the data were processed

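Polyadenylated RNA was sequenced in 14 libraries of 4 groups, assigned from the sample titles. Raw counts for each gene symbol were deposited by the authors, in 1 table per experiment. The submitters' processing notes name STAR, DESeq2 and GRCm38 (mm10). The counting program, annotation, strand and treatment of duplicates are not given in the sources used here.

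From the deposited counts, each experiment was fitted alone in R 4.3.3 with edgeR 4.0.16 (filterByExpr with minimum count 10 and minimum total 15, TMM, robust glmQLFit and glmQLFTest, Benjamini-Hochberg adjustment), which left 15794 and 13456 genes. Standard errors were derived from the size of the log2 fold change and the root of edgeR's F. The code was tested on simulated data. Library depth, 60147266 to 68730322 for luciferase and SETBP1-D868N but 7083731 to 10359093 for DMSO and PF-9363, limits the precision of low genes in the latter.

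The members and all lists were chosen with earlier results of these data known. Library values are given for the 2 members of each role with the largest change in a comparison, for members called against the majority (the 3 largest), and for members whose call turns on 1 library, the last chosen after their values were seen. Of other pathway genes, the 3 largest called changes per direction are named. Gene positions and principal transcript lengths are from GENCODE M21, matched by symbol for all 49, and promoters from RefSeq.

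Alternatives were RLE size factors, library size alone, DESeq2 1.42.0, no filter beyond 1 count, a filter at a mean count of 10, the replicate number as a block, and leaving out each library. Leaving out DMSO 1 and 3, or 2 and 4, was added after seeing the data.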

Additional observations from a re-analysis of the deposited data

Results flagged for a closer look

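Each member, and the summed and the mean log2 level of all members, was checked for a library far from the other 3 in the DMSO and PF-9363 groups. Of these 102 sets 5 stood out, all of single members, where chance flags about 1 in 20 groups. Polr1a had 32.4 CPM in DMSO 4 against 41.4 to 42.2 in the other DMSO libraries. Polr1b had 17.6 CPM in PF-9363 1 against 10.4 to 10.9 in the others. Nhp2 had 48.2 CPM in PF-9363 2 against 51.9 to 52.6. Ddx10 had 32.3 CPM and Bop1 36.4 CPM in PF-9363 4, against 24.9 to 26.2 and 30.5 to 31.5 CPM in the other PF-9363 libraries. No pattern across these libraries was tested.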

How the results depend on the processing

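For SETBP1-D868N, 46 of the 49 members kept their direction and side of the threshold in all 12 alternatives, Polr1a and Heatr1 gained a call in 4 each, and Imp3 lost it in 2. The median of the members was 0.43 under library-size scaling and 0.36 to 0.39 when 1 library was left out. For PF-9363, 32 of 49 members kept both in 16 alternatives, 17 did not and 6 of these changed sign, namely Fbl, Imp4, Noc3l, Polr1a, Rrn3 and Wdr75, of which 0 had been called. Library-size scaling gave 4 members and 5 other pathway genes called higher and a median of −0.65. Leaving out 1 library gave medians of −0.37 (without PF-9363 2) to −0.46, and without DMSO 1 and 3 or 2 and 4 it was −0.32 or −0.52. Sign changes were as follows. With 1 library left out, values ranged from −0.111 to 0.024 for Fbl, −0.079 to 0.043 for Imp4, −0.087 to 0.079 for Polr1a, −0.100 to 0.000 for Rrn3 and −0.018 to 0.143 for Wdr75. Fbl had 0.077 without DMSO 1 and 3. Imp4 had 0.014 with RLE and 0.014 with DESeq2, and 0.089 without DMSO 1 and 3. Polr1a had −0.23 by library size, where it was called lower (edgeR adjusted p 0.0453), −0.016 without the filter and −0.092 without DMSO 2 and 4. Wdr75 had −0.165 by library size and −0.082 without DMSO 2 and 4. Noc3l had −0.079 by library size. The cause was not tested. The labels state no pairing by replicate number. Correlations of same-numbered deviations ran from −0.097 to 0.008 and those of differently numbered ones from −0.063 to 0.104. With so few libraries these cannot show whether same-numbered libraries shared a culture or animal. With the replicate block 47 members were higher with SETBP1-D868N, and 8 were higher and 31 lower with PF-9363. The block ended the call of Ltv1 (−0.21, adjusted p 0.0541) and gave one to Nat10 (−0.235, adjusted p 0.0448).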
